A study of Mus musculus with 20 samples.

Results

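The vomeronasal type 2 receptor (Vmn2r) promoters described here were the promoter probes whose gene symbol begins with Vmn2r, and there were 94 of them among the 22480 promoters of the table that the authors deposited. Their methylation was measured in sperm DNA of 20 male mice, taken from epididymis and vas deferens at 8 weeks of age, with 5 males in each of 4 groups. Mothers of the C57BL/6J DEHP and FVB/N DEHP groups received di(2-ethylhexyl) phthalate (DEHP), a plasticizer, in corn oil by mouth at 300 mg/kg/day from gestation day 9 to 19, whereas mothers of the C57BL/6J control and FVB/N control groups received corn oil alone. In MBD-sequencing, fragments with methylated CG sites are captured by a methyl binding domain and sequenced, so a promoter gains reads with more methylation and with more CG sites. The deposited values are the mean and the SD of normalized reads per group (n = 5) in a probe of 2200 bp, from 2000 bp before to 200 bp after the start of the gene. Single libraries were not analysed, and the depth of each is unknown, although more read-pairs were sequenced on average for DEHP than for control libraries. No test between groups was run. DEHP and control libraries were prepared in separate submissions and read to different lengths (51 and 49 bases), and in every comparison of DEHP with control the treatment cannot be told apart from the submission, while each submission held both strains.

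Vomeronasal type 2 receptors are G protein-coupled receptors with a large extracellular domain, found on sensory neurons of the basal layer of the vomeronasal organ, where they detect peptide and protein cues such as major urinary proteins and exocrine gland-secreting peptides. Most of the genes lie in clusters, and most neurons express 1 or few of them together with a receptor of the broadly expressed subfamily Vmn2r1 to Vmn2r7. In sperm DNA most CG sites outside CG islands are methylated.

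The probes of the family differ from each other in how many CG sites the assay could capture, which is visible in the sequence around the start used for each probe. The 300 bases from 250 before to 50 after the start are given for the 6 promoters with the largest changes among those named below, with each CG site in capitals. They were read from GRCm38.p6, the assembly of mm10, at Vmn2r29 (chr7:7278240-7278539, minus strand), Vmn2r60 (chr7:42116221-42116520, plus strand), Vmn2r16 (chr5:109330131-109330430, plus strand), Vmn2r80 (chr10:79148566-79148865, plus strand), Vmn2r65 (chr7:84963960-84964259, minus strand) and Vmn2r55 (chr7:12684942-12685241, minus strand), and are written on the strand of the gene.
Vmn2r29: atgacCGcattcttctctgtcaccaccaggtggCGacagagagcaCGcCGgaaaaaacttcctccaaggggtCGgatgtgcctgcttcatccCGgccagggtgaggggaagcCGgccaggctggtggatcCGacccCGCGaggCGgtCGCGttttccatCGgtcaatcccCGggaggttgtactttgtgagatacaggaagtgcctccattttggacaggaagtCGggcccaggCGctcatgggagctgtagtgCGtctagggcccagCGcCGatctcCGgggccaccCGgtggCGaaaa
Vmn2r60: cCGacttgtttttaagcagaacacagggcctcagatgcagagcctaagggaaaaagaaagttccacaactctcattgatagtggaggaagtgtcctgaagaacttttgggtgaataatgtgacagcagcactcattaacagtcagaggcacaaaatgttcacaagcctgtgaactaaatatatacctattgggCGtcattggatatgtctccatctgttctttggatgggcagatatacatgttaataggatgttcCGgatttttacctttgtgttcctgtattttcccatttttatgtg
Vmn2r16: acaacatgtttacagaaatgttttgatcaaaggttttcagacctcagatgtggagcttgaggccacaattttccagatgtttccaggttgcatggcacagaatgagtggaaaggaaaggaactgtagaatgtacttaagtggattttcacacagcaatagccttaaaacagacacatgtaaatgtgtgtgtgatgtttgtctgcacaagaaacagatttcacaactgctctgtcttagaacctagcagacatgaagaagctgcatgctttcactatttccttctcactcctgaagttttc
Vmn2r80: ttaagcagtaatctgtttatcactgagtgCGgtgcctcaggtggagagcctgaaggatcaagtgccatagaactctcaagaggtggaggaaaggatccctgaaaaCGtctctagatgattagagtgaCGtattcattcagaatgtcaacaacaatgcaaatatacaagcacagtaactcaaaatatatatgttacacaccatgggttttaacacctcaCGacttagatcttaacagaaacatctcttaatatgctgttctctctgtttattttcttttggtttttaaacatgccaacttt
Vmn2r65: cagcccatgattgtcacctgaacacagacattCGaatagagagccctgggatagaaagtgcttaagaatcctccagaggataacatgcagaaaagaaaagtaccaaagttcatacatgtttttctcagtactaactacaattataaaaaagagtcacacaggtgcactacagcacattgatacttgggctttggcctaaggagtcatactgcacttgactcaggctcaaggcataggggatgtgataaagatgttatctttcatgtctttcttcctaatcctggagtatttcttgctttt
Vmn2r55: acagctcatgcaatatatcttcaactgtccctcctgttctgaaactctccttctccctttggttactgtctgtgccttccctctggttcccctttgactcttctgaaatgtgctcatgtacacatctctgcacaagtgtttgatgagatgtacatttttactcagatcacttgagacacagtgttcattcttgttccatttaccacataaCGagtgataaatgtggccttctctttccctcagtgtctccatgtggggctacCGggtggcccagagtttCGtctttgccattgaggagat
The Vmn2r29 window, at a start 30961 bp from the GENCODE start of the gene, holds 23 CG sites. It is shown because this promoter was lower in DEHP and, through FVB/N control, had the highest level averaged over the groups. The other 5, shown because they were higher in DEHP in 1 or both strains, hold 3 (Vmn2r60), 0 (Vmn2r16), 4 (Vmn2r80), 1 (Vmn2r65) and 3 (Vmn2r55). The start used for Vmn2r60 also lay over 1000 bp from the GENCODE start. Over the family, 29 of the 94 windows held no CG site, against 4.67% of the windows of all promoters.

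Over the whole probe, Vmn2r promoters had a median of 8 CG sites (range 2 to 52), whereas the median of all promoters was 45. Of the 94, 69 held 10 or fewer CG sites (8.92% of all promoters) and 8 held over 20 (78.0% of all promoters). The CG number that the authors list was found in GRCm38.p6 for 91 of the 94 probes. The median GC content was 36.7% and the median repeat-masked share 24.2%, against 48.0% and 19.2% over all promoters. Vmn1r promoters (vomeronasal type 1 receptors, n = 144) and Olfr promoters (olfactory receptors, n = 1074) had the same median of 8 CG sites.

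GENCODE lists 90 of the 94 genes as protein coding and 3 as pseudogenes, and has no gene named Vmn2r123. The probe overlapped an exon of its own gene for 91 of the 94. Of the 93 probes that could be compared, 42 began from a gene start within 100 bp of the GENCODE start, whereas 14 lay over 1000 bp away. Among the 14 were Vmn2r2 to Vmn2r6, Vmn2r60 (8701 bp) and Vmn2r29 (30961 bp), whose probe overlaps exons of the gene models Gm18190 and Gm45844 and no exon of Vmn2r29. Vmn2r7 and Vmn2r-ps11 have the same probe, and the probes of Vmn2r123 and Vmn2r-ps159 lie 23 bp apart, so that these 4 entries stand for 2 regions.

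Some family members share sequence with each other, and the authors discarded read-pairs that aligned to several positions. Of the Vmn2r probes, 8 shared over 40% of their 31-base sequences with the probe of another member, and the rest did not. The share of a probe made of unique sequence (51-base sequences that occur once in the genome) had a median of 89.4% in Vmn2r promoters, 95.4% in Vmn1r promoters and 98.1% in Olfr promoters. It was under 75% in 15 Vmn2r promoters (3.39% of all promoters). It was 11.1% for Vmn2r5, 29.6% for Vmn2r50 and 38.0% for Vmn2r44, so that the levels of these 3 may rest on a small part of the probe. The part that uniquely placed read-pairs could cover was not measured.

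The sperm label was checked on promoters of imprinted genes. In sperm, imprinted regions methylated in oocytes are free of methylation and those methylated in the paternal germline carry it. Of the 8 promoters of maternally methylated genes, 7 stayed at or under a mean of 8.1 normalized reads in all 4 groups. Nnat departed from the others, with 26.5, 9.5, 18.1 and 14.6 normalized reads in the control and DEHP groups of C57BL/6J and the control and DEHP groups of FVB/N. Of the 3 promoters near paternally methylated regions, H19 had 25.3, 18, 18.8 and 17.5 and Meg3 had 25.8, 9.2, 7 and 5.2 normalized reads in the same order. Rasgrf1 was low, with 2.4, 3, 3.7 and 2.6 normalized reads. The medians of all promoters were 5, 5.3, 3 and 4.9 in the same order. A level at or under 8.1, which is the highest value of the 7 (Peg3 in FVB/N DEHP), therefore does not set them apart from most promoters. In FVB/N DEHP Peg3 was also above Meg3 (8.1 against 5.2), so these promoters do not settle the sperm label. The probe of Snrpn, with few CG sites (15), moved as many Vmn2r promoters did. It went from 0.5 ± 0.7 to 4 ± 1 normalized reads in C57BL/6J and from 1.1 ± 1.2 to 4.4 ± 1.2 in FVB/N (SD, n = 5). Whether this probe, or those of the other imprinted genes, covers the imprinted region was not examined.

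Vmn2r promoters were low in controls of both strains and higher in DEHP. As deposited, the median of the 94 means was 1.1 normalized reads in C57BL/6J control, 2.7 in C57BL/6J DEHP, 1.1 in FVB/N control and 2.65 in FVB/N DEHP, whereas the medians of all promoters were 5, 5.3, 3 and 4.9. The means were under 1 normalized read in 45 promoters in C57BL/6J control and 44 in FVB/N control, against 9 and 10 in the DEHP groups. Of all promoters, 8.80% and 14.8% were under 1 in these control groups and 4.66% and 8.04% in the DEHP groups. In each control group 6 Vmn2r promoters were listed at 0, against 0.494% (C57BL/6J) and 0.907% (FVB/N) of all promoters, and in the DEHP groups 0 were, against 0.151% and 0.391%. At means of at least 1 normalized read, the SD was 0.656, 0.519, 0.847 and 0.58 of the mean as a median over Vmn2r promoters of these groups, so single promoters are known with wide errors.

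**Figure D1:**
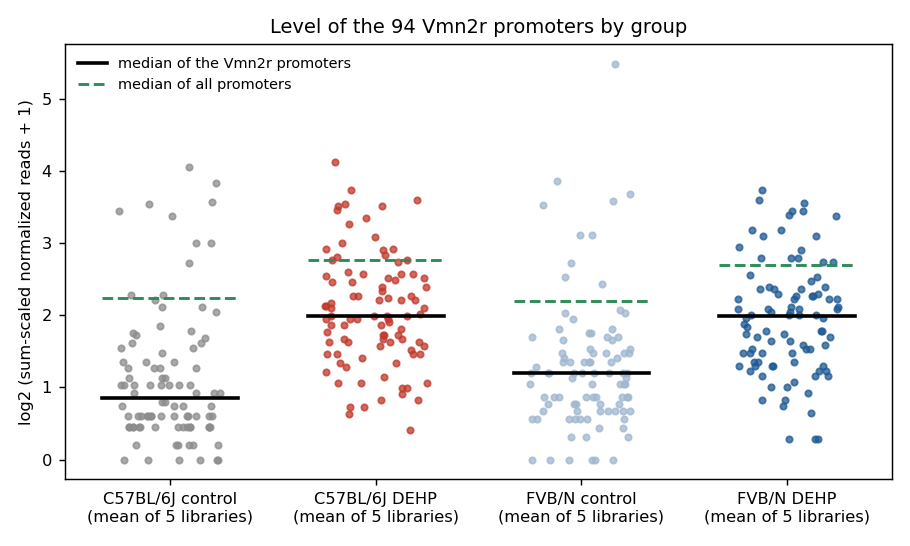
Level of each Vmn2r promoter (points, 94 per group) as log2 of sum-scaled normalized reads plus 1, with the median of the family (black line) and of all promoters (green dashed line). The DEHP points lie above the control points as a group in both strains and stay mostly under the median of all promoters.

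The sums of the means over all promoters differed between groups (226268, 153283, 141092 and 150346 in the same order), so the means were scaled to equal sums before they were compared. A change is the log2 ratio of DEHP over control on the scaled means plus 1, with a standard error (SE) from the SDs, and a positive value stands for more captured reads in DEHP. This scaling leaves the median change of all promoters at 0.33 (C57BL/6J) and 0.29 (FVB/N). Values for Vmn2r promoters are read against that shift.

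In C57BL/6J the median change of the 94 Vmn2r promoters was 0.98 (quartiles 0.46 and 1.43), which is 0.65 above that of all promoters. The change was above 1 in 46 of them (48.9%), against 14.7% of all promoters, and below -1 in 1, Vmn2r44, against 2.22%. In 51 Vmn2r promoters DEHP was higher by more than the larger SD of both groups (27.5% of all promoters), and in 1 it was lower by more than that (8.53%). The promoters of Vmn1r and Olfr genes had median changes of 1.07 and 0.97, and promoters outside these 3 families 0.30 (0.68, 0.54 and -0.20 with means scaled to equal medians).

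In FVB/N the median change was 0.75 (quartiles 0.27 and 1.19), which is 0.46 above that of all promoters. With means scaled to equal medians, the family medians were 0.64 (C57BL/6J) and 0.33 (FVB/N), against -0.16 and -0.18 over all promoters. The change was above 1 in 32 Vmn2r promoters (34.0%), against 13.6% of all promoters, and below -1 in 3, Vmn2r29, Vmn2r44 and Vmn2r69, against 3.61%. DEHP was higher by more than the larger SD in 41 Vmn2r promoters (21% of all promoters) and lower by more than that in 2 (7.62%). Median changes were 0.78 for Vmn1r, 0.81 for Olfr and 0.27 for promoters outside these families (0.46, 0.40 and -0.21 with equal medians). With means scaled to equal medians in place of equal sums, the count above 1 was 24 in C57BL/6J (3.83% of all promoters) and 14 in FVB/N (3.86%), and the count below -1 was 1 and 4 (12.6% and 13.5% of all promoters).

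Both strains showed a change above 1 in 21 Vmn2r promoters (5.08% of all promoters did), C57BL/6J alone in 25 (9.64%) and FVB/N alone in 11 (11.7% of Vmn2r promoters and 8.51% of all). The change was above 0 in both strains in 80 of 94 (55.2% of all promoters), below 0 in both in 4 (20.02%), positive in C57BL/6J and negative in FVB/N in 7 (13.2%), and the reverse in 3 (11.4%). In 24 the DEHP mean exceeded the control mean by more than the larger SD in both strains (10.96% of all promoters). The changes in the strains correlated over the 94 promoters with a Pearson r of 0.49 and a Spearman rho of 0.36 (0.59 and 0.57 over all promoters), where the promoters of a strain share their libraries and the strains share their submissions. The change was larger in C57BL/6J in 60 Vmn2r promoters (63.8%, against 51.1% of all promoters) and in FVB/N in 34, and the median difference of C57BL/6J minus FVB/N was 0.16 (0.02 over all promoters). Among Vmn1r and Olfr promoters 62.5% and 57.4% had the larger change in C57BL/6J, with median differences of 0.20 and 0.11. For Vmn2r promoters the order turned with means as deposited, where the change was larger in C57BL/6J in 39 (41.5%, against 22.8% of all promoters) and the median difference was -0.15 (-0.50 over all promoters). Whether the change differs between strains was not tested.

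**Figure D2:**
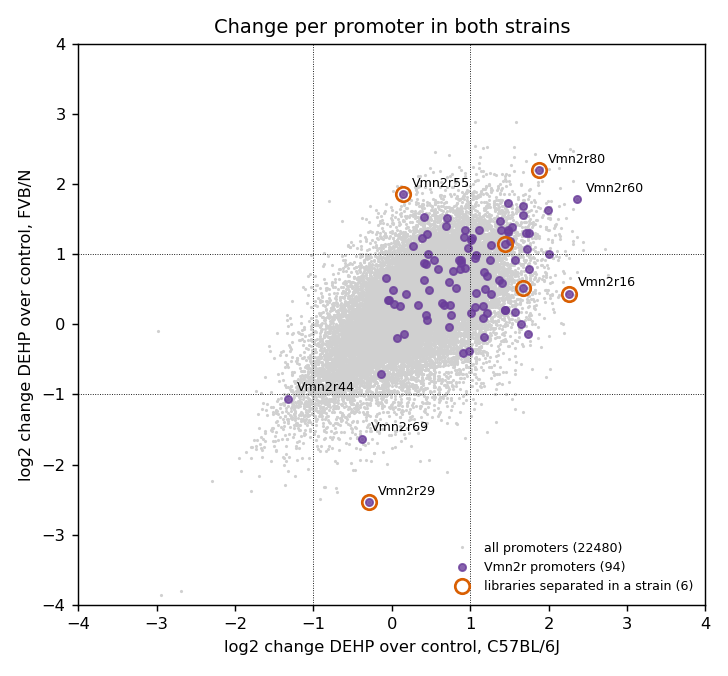
Change (log2 of DEHP over control on sum-scaled means plus 1) in C57BL/6J (horizontal axis) and FVB/N (vertical axis) for all 22480 promoters (grey) and the 94 Vmn2r promoters (purple), with circles for the 6 whose DEHP and control libraries were separated in a strain and dotted lines at 1 and -1. The 21 promoters of the upper right corner had a change above 1 in both strains, and Vmn2r29, Vmn2r69 and Vmn2r44 lie below.

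The SDs also allow a stricter reading. A library of a group of 5 cannot lie further than 1.7889 SD from the mean, so where the ranges so defined (with the mean and the SD each shifted by 0.05 to allow for rounding) do not meet, every library of one group was above every library of the other. In C57BL/6J this held for 3 Vmn2r promoters that were higher in DEHP (1.02% of all promoters), Vmn2r16, Vmn2r100 and Vmn2r77, and for 0 that were lower (0.129%). In FVB/N it held for Vmn2r80 and Vmn2r55, which were higher (0.627% of all promoters), and for Vmn2r29, which was lower (1.04%). With means as deposited or scaled to equal medians 2 were left in C57BL/6J, without Vmn2r77, and with equal medians 1 was left in FVB/N, without Vmn2r55, while Vmn2r29 was separated under each of the 3 other scalings tried. Within a scaling, groups can also be separated without meeting the bound.

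Vmn2r16, on chromosome 5, had 0.2 ± 0.5 normalized reads in C57BL/6J control and 4.1 ± 0.4 in C57BL/6J DEHP (SD, n = 5), a change of 2.26 ± 0.21 (SE). In FVB/N it had 1.3 ± 0.9 and 2.2 ± 1.5, a change of 0.44 ± 0.41, and separation could not be shown. Vmn2r100, on chromosome 17, was listed at 0 in C57BL/6J control and had 2 ± 0.9 in C57BL/6J DEHP, with 0.4 ± 0.6 and 1 ± 1.5 in the FVB/N groups. Its separation therefore rests on a control group without a read after rounding.

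Vmn2r77, on chromosome 7, was at a higher level than these. It had 5.2 ± 2.1 and 11.2 ± 2.4 normalized reads in C57BL/6J control and DEHP, a change of 1.45 ± 0.24 (not separated with means as deposited or scaled to equal medians), and 2.6 ± 3.7 and 7.2 ± 2.3 in FVB/N, a change of 1.14 ± 0.72. The FVB/N control SD exceeded its mean, and the possible FVB/N ranges overlapped. In C57BL/6J the largest change of the family was that of Vmn2r60, from 0.2 ± 0.5 to 4.5 ± 2.3 (2.37 ± 0.34), with 0.6 ± 0.9 and 4.4 ± 3.2 in FVB/N (1.79 ± 0.56). Its DEHP libraries spread widely in both strains and separation could not be shown.

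Vmn2r80, on chromosome 10, was the Vmn2r promoter with the largest change in FVB/N. Its means were 1.3 ± 0.9 in FVB/N control and 9.6 ± 1.8 in FVB/N DEHP (2.20 ± 0.29), and 2.4 ± 0.8 and 8.4 ± 3.5 in C57BL/6J (1.87 ± 0.28). The probe has 13 CG sites and 0 listed variants between the strains, and both strains showed a similar step. Vmn2r55, on chromosome 7, had 0.5 ± 0.6 in FVB/N control and 4.3 ± 1.1 in FVB/N DEHP (1.86 ± 0.32, not separated with equal medians), but 3.5 ± 1.5 and 2.7 ± 1.8 in C57BL/6J (a change of 0.14 ± 0.38, negative with means as deposited or scaled to equal medians). The probe holds 11 variants, 59.3% of it is unique, and it shares many of its 31-base sequences with the probe of Vmn2r54.

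Vmn2r29, on chromosome 7, was the member with the most CG sites (52) and, through FVB/N control, the highest level averaged over the groups. It had 36.8 ± 12.5 normalized reads in FVB/N control and 6 ± 2.4 in FVB/N DEHP, a change of -2.54 ± 0.31, and 12.6 ± 4 and 6.8 ± 4.6 in C57BL/6J, a change of -0.29 ± 0.43. The FVB/N control group stood apart from the other 3 groups, which lay between 6 and 12.6. In each of those 3 groups Vmn2r11 or Vmn2r82 had more normalized reads than Vmn2r29. The probe holds 14 variants, 72.2% of it is unique, and the 300 bases printed above carry 23 of its CG sites. It overlaps no exon of Vmn2r29 in GENCODE, so its values may not describe the promoter of that gene.

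Vmn2r44, on chromosome 7, with 35 CG sites, was lower in DEHP in both strains, from 17.9 ± 9.6 to 4.3 ± 1.5 in C57BL/6J (-1.32 ± 0.37) and from 1.3 ± 1.2 to 0.2 ± 0.4 in FVB/N (-1.06 ± 0.43). It was also higher in C57BL/6J than in FVB/N within each treatment, while the authors list 0 variants in its probe and 38.0% of it is unique. Vmn2r69, on chromosome 7, had 5.2 and 2.5 normalized reads in C57BL/6J (-0.38), with 9.9 and 2.8 in FVB/N (-1.63), with 22 variants. All 3 promoters below -1 in FVB/N thus have 19 or more CG sites and at most 75% unique sequence, and they lie on chromosome 7. Of the 94 promoters, 27 lie on chromosome 7 and 17 have at most 75% unique sequence. With means scaled to equal medians 4 were below -1 in FVB/N.

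**Figure D3:**
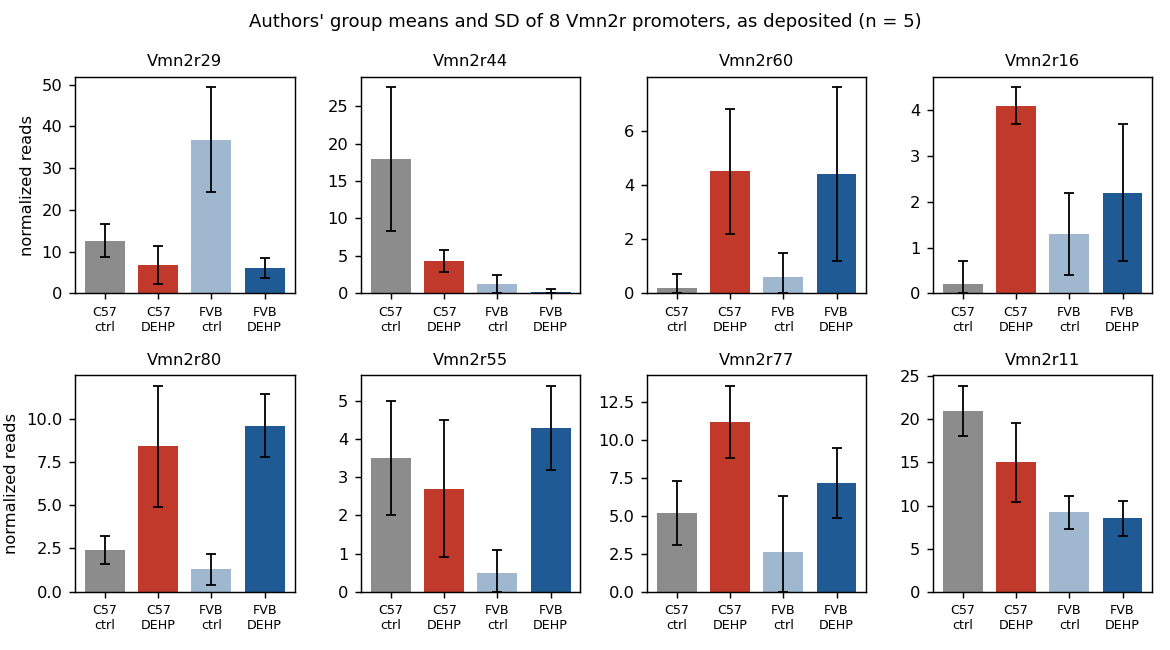
Means of normalized reads as the authors deposited them, with bars for the SD (n = 5, truncated at 0), for 8 Vmn2r promoters in the control (ctrl) and DEHP groups of both strains. Vmn2r60, Vmn2r80 and Vmn2r77 were higher in DEHP in both strains, Vmn2r16 mainly in C57BL/6J and Vmn2r55 in FVB/N, whereas Vmn2r29 and Vmn2r44 were lower and Vmn2r11 had 8.5 to 21 normalized reads.

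Among receptors with a known role, the broadly expressed subfamily on chromosome 3 was examined first. Vmn2r2 had 1.9 ± 1 and 6 ± 1.9 normalized reads in C57BL/6J control and DEHP (1.65 ± 0.27), and 2.7 ± 4.9 and 2.9 ± 1.4 in FVB/N (0.01 ± 0.92). Vmn2r7 had 1.6 ± 1.3 and 4.5 ± 2.2 in C57BL/6J (1.44 ± 0.39), with 2.1 ± 1.7 and 2.7 ± 1.1 in FVB/N (0.20 ± 0.42). Both promoters exceeded the larger SD in C57BL/6J and did not in FVB/N, where equal medians gave a negative change for each.

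Vmn2r1 had changes of 0.79 ± 0.43 and 0.76 ± 0.38 in C57BL/6J and FVB/N, Vmn2r3 of 1.07 ± 0.47 and 0.94 ± 0.46, and Vmn2r4 of 0.70 ± 0.43 and 1.52 ± 0.43. These 3 exceeded the larger SD in FVB/N and did not in C57BL/6J. Vmn2r5 and Vmn2r6 were listed at 0 in C57BL/6J control and had at most 0.9 normalized reads in the other groups. Together the 8 entries of this cluster had a median change of 1.03 for C57BL/6J and 0.20 for FVB/N. With means scaled to equal medians the FVB/N median of the 8 entries was -0.25. Without the 2 entries listed at 0 in a group the medians were 1.25 and 0.48. Vmn2r7 and Vmn2r-ps11 have the same probe and count here as 2 entries. With that probe counted once and the entries at 0 left out, the middle change was 1.07 in C57BL/6J (Vmn2r3). In FVB/N it was 0.76 (Vmn2r1), so the difference between the strains in this cluster depends on that probe.

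Vmn2r116, the receptor of the male tear peptide ESP1, had 1.4 ± 1 and 1.6 ± 1.9 normalized reads in C57BL/6J (0.43 ± 0.54), with 0.5 ± 0.7 and 1.7 ± 0.9 in FVB/N (0.86 ± 0.40). The C57BL/6J means differed by less than either SD, and in FVB/N the difference exceeded the larger SD. The promoter of the Esp1 gene itself had 1.4 ± 1.3 and 3.8 ± 0.8 in C57BL/6J, with 0.7 ± 0.9 and 1.3 ± 0.5 in FVB/N.

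Vmn2r26, which responds to peptides bound by major histocompatibility complex molecules, was listed at 0 in both control groups and had 1.8 ± 2.1 and 0.8 ± 0.8 normalized reads in the DEHP groups of C57BL/6J and FVB/N. It shares 54.4% of its 31-base sequences with the probe of Vmn2r25, and the DEHP means do not exceed their SD. Vmn2r65 had 0.5 ± 1.1 and 4.1 ± 2.8 in C57BL/6J (2.00 ± 0.53), with 1.3 ± 1.2 and 3.7 ± 3.3 in FVB/N (1.01 ± 0.59). The DEHP SDs were large in both strains, and separation could not be shown.

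Vmn2r83, which is also expressed in the Grueneberg ganglion, had changes of 0.69 ± 0.58 for C57BL/6J and 1.40 ± 0.56 for FVB/N. Vmn2r88, a receptor for hemoglobin, had 0.94 ± 0.48 and 0.80 ± 0.33, from 1.9 ± 1.9 to 3.3 ± 1.9 normalized reads in C57BL/6J and from 1.1 ± 0.7 to 2.7 ± 1.3 in FVB/N. Of the 12 receptors named for their role, 0 could be shown to have separated libraries in either strain. Over all promoters 1.02% (C57BL/6J) and 0.627% (FVB/N) were separated and higher in DEHP, and 0.129% and 1.04% were separated and lower. With such small shares, a count of 0 says little about these 12.

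Levels within the family followed the number of CG sites. Over the 94 promoters the CG number and the scaled level averaged over the groups had a Pearson r of 0.81 and a Spearman rho of 0.60, whereas over all promoters they had -0.13 and -0.16, and the promoters share their libraries. The promoters with the highest levels averaged over the groups were Vmn2r29, Vmn2r11 (21 CG sites) and Vmn2r82 (36 CG sites), and those with the lowest were Vmn2r50, Vmn2r28 and Vmn2r5. Vmn2r29 was first through FVB/N control (36.8 normalized reads). It had 12.6, 6.8 and 6 in C57BL/6J control, C57BL/6J DEHP and FVB/N DEHP, where Vmn2r11 or Vmn2r82 was higher. Vmn2r11 had 21 ± 2.9 and 15 ± 4.6 normalized reads in C57BL/6J (0.07 ± 0.20), with 9.2 ± 1.9 and 8.5 ± 2 in FVB/N (-0.19 ± 0.18). Vmn2r82 had 11.4 ± 1.9 and 11 ± 2.6 in FVB/N (-0.13 ± 0.17) and, from 13.3 ± 4 in control, a change of 0.15 ± 0.24 in C57BL/6J. For these 2 the direction in C57BL/6J was negative with means as deposited or scaled to equal medians.

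Vmn2r50 was listed at 0 in both control groups and had 0.3 and 0.5 normalized reads in C57BL/6J DEHP and FVB/N DEHP. Vmn2r28 was listed at 0 in FVB/N control and had at most 0.7 elsewhere. Vmn2r93 with 2 CG sites and Vmn2r25 with 3, the members with the fewest, had changes of 0.46 ± 0.41 and 0.54 ± 0.50 in C57BL/6J, with 1.01 ± 0.50 and 0.92 ± 0.60 in FVB/N. Vmn2r-ps54, with 37 CG sites, had 0.19 ± 0.42 and 0.43 ± 0.38, and both changes were negative with equal medians.

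The change was lower in the promoters with the most CG sites. Over the 94 promoters, CG number and change had a Pearson r of -0.42 and a Spearman rho of -0.09 in C57BL/6J, with -0.46 and -0.09 in FVB/N, where the promoters share their libraries. In the 19 Vmn2r promoters with 1 to 5 CG sites the median change was 0.74 for C57BL/6J and 0.80 for FVB/N, in the 50 with 6 to 10 it was 1.12 and 0.80, and in the 17 with 11 to 20 it was 1.01 and 1.07. In the 8 with over 20 it was 0.02 and 0.11, and -0.58 and -0.46 with means scaled to equal medians. Promoters outside the Vmn1r, Vmn2r and Olfr families in the same CG ranges had medians of 0.80 and 0.43 (n = 153), 0.90 and 0.72 (n = 902), 0.56 and 0.63 (n = 2636), and 0.22 and 0.18 (n = 17477). With equal medians these became 0.44 and 0.10, 0.45 and 0.31, 0.02 and 0.12, and -0.28 and -0.29, while the Vmn2r medians up to 20 CG sites became 0.43 and 0.52, 0.79 and 0.42, and 0.50 and 0.57. At 6 to 10 CG sites, 58% of Vmn2r promoters were above 1 in C57BL/6J against 42.0% outside the families, and 36% against 30.0% in FVB/N. At 11 to 20 CG sites the shares were 52.9% against 20.1% and 52.9% against 24.3%. With sum-scaled means, medians of promoters with few CG sites were thus above 0 outside the receptor families too, and within each CG range the Vmn2r medians lay closer to theirs than over all CG numbers.

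**Figure D4:**
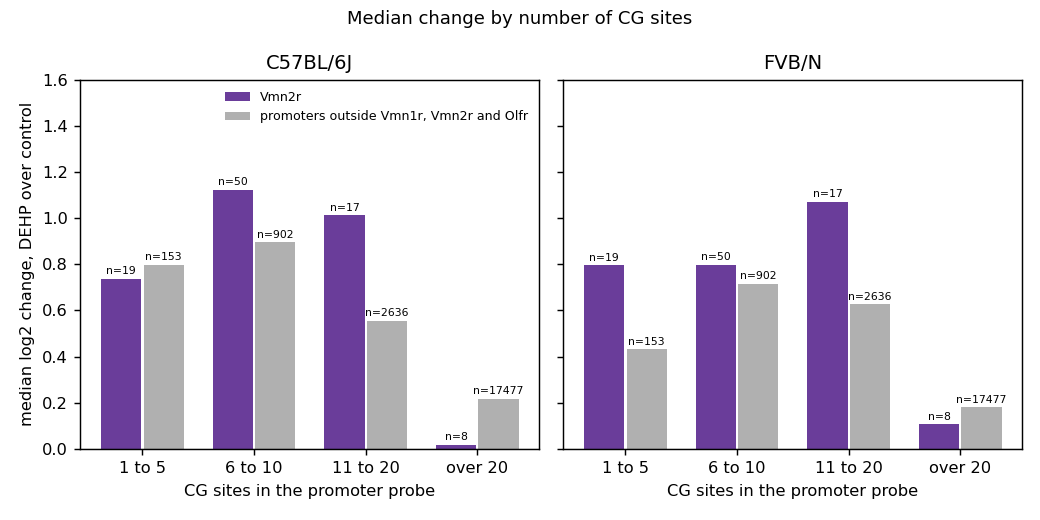
Median change (log2 of DEHP over control) of Vmn2r promoters (purple) and of promoters outside Vmn1r, Vmn2r and Olfr (grey) by number of CG sites in the probe, in C57BL/6J (left) and FVB/N (right), with the number of promoters above each bar. Both kinds have lower medians over 20 CG sites, and the widest gap between them lies at 11 to 20 CG sites, with 1.01 against 0.56 and 1.07 against 0.63.

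The 8 promoters with over 20 CG sites were not of 1 kind. Vmn2r19, with 23, was higher in DEHP, from 3.3 to 9.7 normalized reads in C57BL/6J (1.75) and from 2.4 to 5.1 in FVB/N (0.80). Vmn2r29 and Vmn2r44 were lower as given above. Vmn2r123 and Vmn2r-ps159, which overlap, had changes of -0.03 and -0.05 in C57BL/6J and 0.34 each in FVB/N (negative there with equal medians), and Vmn2r82, Vmn2r11 and Vmn2r-ps54 had changes between -0.19 and 0.43.

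On the scale with a pseudocount of 1, the change also varied with unique sequence. In the 17 Vmn2r promoters with at most 75% unique sequence the median change was 0.41 for C57BL/6J and 0.29 for FVB/N, in the 34 with over 75 to 90% it was 0.998 and 0.80, and in the 43 above 90% it was 1.18 and 0.80. With equal medians these were 0.20 and 0.16, 0.64 and 0.46, and 0.75 and 0.45. The median scaled levels of the 3 ranges were 1.26, 2.12 and 1.97, and the pseudocount shrinks a change more at a low level. As deposited, the median means in C57BL/6J went from 0.7 to 1.8 normalized reads at most 75% and from 1 to 2.6 above 90%. In FVB/N they went from 0.6 to 1.3 and from 1.1 to 2.9. A link of unique sequence with the change was not tested. Outside the families the medians of the same ranges were 0.44 and 0.34, 0.37 and 0.34, and 0.29 and 0.26. In the 43 promoters above 90%, 27 (62.8%) were above 1 for C57BL/6J and 16 (37.2%) for FVB/N, against 12.3% and 11.9% outside the families.

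Sequence variants between the strains were listed in 60 of the 94 probes, while 34 held 0 variants (53.9% of all promoters). More than 10 were listed in 18 probes (12.7% of all promoters), and 54 of the genes carried functional variants (24.8% of all promoters). The median change was 1.05 for C57BL/6J and 0.83 for FVB/N in the 34 without variants, 1.07 and 0.80 in the 42 with 1 to 10, 0.86 and 0.43 in the 13 with 11 to 20, and -0.03 and 0.34 in the 5 with over 20. With equal medians these were 0.69 and 0.42, 0.69 and 0.49, 0.46 and 0.04, and -0.62 and -0.21. The last range holds Vmn2r94 (1.75 and 1.31) and Vmn2r110 (0.44 and 0.13), which have few CG sites, with Vmn2r69 and the overlapping pair Vmn2r123 and Vmn2r-ps159.

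Comparison of the strains within a treatment came next. In controls the median log2 ratio of C57BL/6J over FVB/N was -0.20 (0.00 over all promoters, and 0.09 against 0.54 with means as deposited), with 2 promoters above 1 (3.21% of all promoters) and 4 below -1 (2.55%). In DEHP the median was 0.04 (-0.03 with means scaled to equal medians), with 2 above 1 (2.89%) and 1 below -1 (0.485%). The 2 in controls were Vmn2r44 (2.49) and Vmn2r55 (1.17), and the 4 were Vmn2r29 (-2.11), Vmn2r69 (-1.40), Vmn2r16 (-1.15) and Vmn2r102 (-1.02). Of these 6, Vmn2r44 alone kept a ratio beyond 1 in DEHP (2.22). Libraries were separated between strains at Vmn2r29 in controls (lower in C57BL/6J, 0.111% of all promoters) and at Vmn2r44 in DEHP (higher in C57BL/6J, 0.294%). The numbers of variants in the probe and the ratio in controls had a Pearson r of 0.01 over the 94 promoters and 0.25 over all promoters.

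The 94 promoters lay on 9 chromosomes, with 28 on chromosome 17 and 27 on chromosome 7, and formed 20 clusters when neighbours at most 1 Mb apart were joined. Of these, 10 clusters of 4 or more promoters held 80 promoters and 7 clusters held 1. The medians of the 10 larger clusters lay between 0.57 and 1.38 in C57BL/6J and between 0.20 and 1.24 in FVB/N. All were above 0 in both strains with sum-scaled means, and the cluster on chromosome 3 was below 0 in FVB/N with equal medians. Members of a cluster scattered as widely as the medians of most clusters differed.

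The largest cluster, on chromosome 17 (chr17:17701941-20598259, 22 promoters from Vmn2r90 on), had median changes of 0.95 for C57BL/6J and 0.84 for FVB/N, with members between 0.02 and 1.75 and between -0.13 and 1.74. Its summed scaled level was 21.7 in C57BL/6J control, 61.5 in C57BL/6J DEHP, 29.4 in FVB/N control and 58.6 in FVB/N DEHP. Of its 22 probes 1 held 0 variants. It surrounds the formyl peptide receptor genes, some of which are also expressed in the vomeronasal organ, and Fpr3 (2.37 and 1.25), Fpr-rs6 (2.37 and 0.74) and Fpr2 (0.85 and 1.40) with 6 to 10 CG sites had positive changes, whereas Fpr-rs4 with 18 CG sites had -0.68 and -0.04.

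The cluster on chromosome 5 (chr5:108808555-109420212, 10 promoters) had the highest median of the 10 larger clusters in C57BL/6J, 1.38, with 0.99 in FVB/N, and 8 and 5 of its members were above 1 (14.7% and 13.6% of all promoters). With equal medians its medians were 0.98 and 0.64, and 5 and 2 members were above 1. Its summed level went from 24.5 to 56.5 in C57BL/6J and from 23.4 to 44.7 in FVB/N. The clusters of 4 on chromosome 10 (chr10:79146816-79469157 and chr10:130394042-130499379) had 1.21 and 1.24, and 1.09 and 1.22, and in these 8 probes 0 variants were listed. The cluster on chromosome 6 (7 promoters) had 1.18 and 0.92, and those on chromosome 7 had 0.57 and 0.97 (4 promoters), 1.08 and 0.99 (7 promoters), and 1.07 and 0.76 (10 promoters).

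Besides 1 Vmn1r promoter in the chromosome 17 cluster, which was left out here, 19 promoters of other genes lay inside the bounds of the clusters. These 19 had a median of 24 CG sites. Their median changes were 0.42 for C57BL/6J and 0.18 for FVB/N (0.07 and -0.05 with equal medians), and 5 and 2 were above 1 (26.3% and 10.53%, against 14.7% and 13.6% of all promoters). Among them were Mir99b, Mirlet7e and Mir125a, microRNA genes with 40 to 44 CG sites next to the first members of the chromosome 17 cluster. They had changes of -0.30, 0.19 and -0.19 in C57BL/6J, with -0.59, -0.44 and 0.13 in FVB/N. Their probes and that of Spaca6 overlap (starts from chr17:17828188 to chr17:17828975), so these entries of the 19 stand for 1 stretch of sequence. The position inside a cluster was thus not accompanied by a higher level in DEHP at every promoter.

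**Figure D5:**
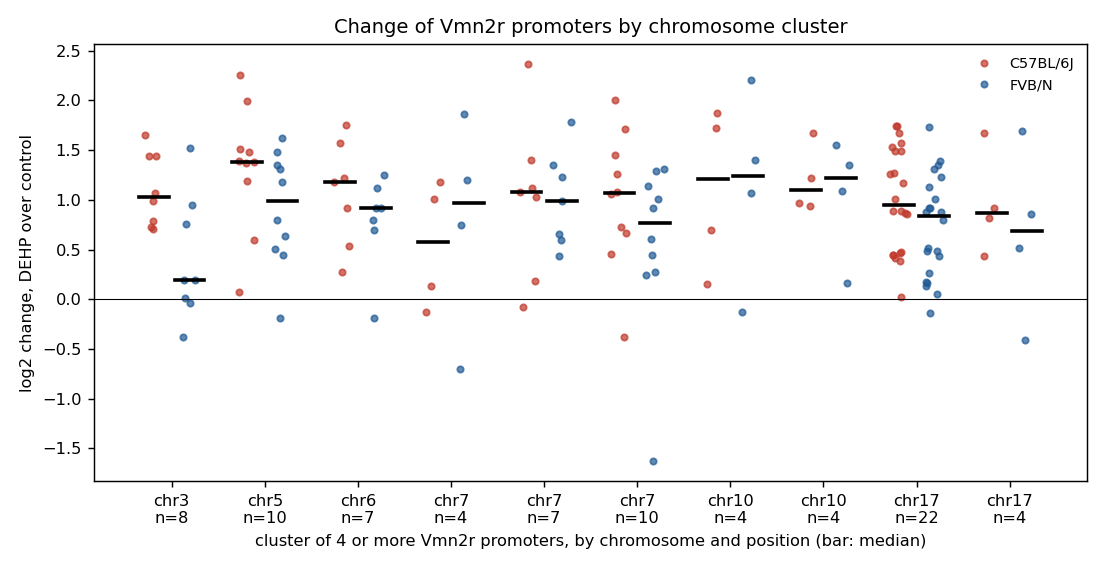
Change (log2 of DEHP over control on sum-scaled means plus 1) of each Vmn2r promoter in the 10 clusters of 4 or more, in C57BL/6J (red) and FVB/N (blue), with black bars for the cluster medians. The medians lie between 0.57 and 1.38 in C57BL/6J and between 0.20 and 1.24 in FVB/N (-0.25 for chromosome 3 with means scaled to equal medians), and members of most clusters scatter over 1 or more log2 units.

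The other genes of the vomeronasal pathway fell into promoters with few and with many CG sites. Of 22 ligand genes, 21 were measured, namely exocrine gland-secreting peptides, major urinary proteins and odorant binding proteins, with a median of 9 CG sites. Their median changes were 0.91 for C57BL/6J and 0.54 for FVB/N, and 10 and 6 were above 1 (14.7% and 13.6% of all promoters, and 6 and 3 of the 21 with equal medians). Mup3 went from 1.9 ± 1.6 to 6.9 ± 3.3 normalized reads in C57BL/6J and from 2.6 ± 3.6 to 5.8 ± 1.5 in FVB/N, and Mup20 (darcin, a male urinary pheromone) from 0.5 ± 1.1 to 2.3 ± 0.8 and from 1 ± 1 to 1.6 ± 1.6. Mup21, with 27 CG sites, was lower in DEHP, from 29.9 ± 4.1 to 13.9 ± 5.1 and from 16.7 ± 4.1 to 8 ± 1.9.

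The class Ib major histocompatibility genes that are expressed with these receptors (9 H2-M genes, with B2m as their partner, median of 11.5 CG sites) had median changes of 0.98 and 0.53, and 4 and 3 of the 10 were above 1 (14.7% and 13.6% of all promoters, and 1 and 2 of the 10 with equal medians). H2-M10.5 went from 4 ± 3.3 to 10.7 ± 3 normalized reads in C57BL/6J (1.68) and from 0.7 ± 0.6 to 5 ± 1.7 in FVB/N. The 14 signalling genes, with a median of 47.5 CG sites, had median changes of -0.09 and 0.05 (-0.56 and -0.46 with equal medians). Of them 1 and 0 were above 1 (14.7% and 13.6% of all promoters). In each strain 1, Omp, was below -1 (2.22% and 3.61% of all promoters). With equal medians 0 and 0 were above 1 (3.83% and 3.86% of all promoters), and 2 and 3 were below -1 (12.6% and 13.5%). Trpc2, the transduction channel of these neurons, had 24.8 and 13.9 normalized reads in C57BL/6J control and DEHP (-0.26 ± 0.44), with 12.6 ± 14.4 and 16.6 ± 4.8 in FVB/N, and Gnao1, the G protein subunit coupled to the receptors, had at most 2.6 in any group.

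Omp, the marker protein of mature olfactory and vomeronasal neurons, was lower in DEHP in both strains, from 97.6 ± 28.1 to 26.5 ± 12.1 normalized reads in C57BL/6J and from 69.4 ± 20.6 to 28.7 ± 9.3 in FVB/N, although separation could not be shown by the bound. The 12 transcription factors of the vomeronasal lineage, with a median of 80.5 CG sites, had median changes of 0.17 and 0.18 (-0.20 and -0.25 with equal medians). Of them 0 and 1 were above 1 (14.7% and 13.6% of all promoters), whereas 2 and 1 were below -1 (2.22% and 3.61%). These were Ebf2 (-1.07 and -1.30) in both strains and Meis2 (-1.03) in C57BL/6J, all at low levels. Ebf2 went from 2.1 ± 0.9 to 0.2 ± 0.4 normalized reads in C57BL/6J and from 1.7 ± 2.7 to 0.2 ± 0.4 in FVB/N. Meis2 went from 1.4 ± 2 to 0 in C57BL/6J. Only Ebf2 in C57BL/6J differed by more than the larger SD. The lists with few CG sites thus had sum-scaled medians above 0.5 in both strains, as the receptors did (0.10 and 0.01 in FVB/N for ligands and class Ib genes with equal medians), and the lists with many CG sites had medians below 0.2.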

How the data were processed

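MBD-sequencing of sperm DNA from 20 males (5 in each of 4 groups) was performed by the authors, who aligned read-pairs onto mm10 with Bowtie (0.12.7 in the submitters' processing notes), discarded pairs with several positions or without a CG site, and used edgeR to normalize the numbers of pairs per probe. Deposited as signal, with 1 decimal, were a mean and an SD of these normalized reads in each group. CG sites and variants are the annotations of the authors, as deposited score values. The table also holds the authors' fold changes, p-values and FDR for treatment and strain, and expression values from another dataset, which were not used.

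The table holds 22480 promoters, and groups were taken from the labels. The planned tests on single libraries were replaced by the planned description of group means, because the values are group means and no depth per library is known. Means were scaled to equal sums, a pseudocount of 1 was added before log2, and SEs came from the SDs by the delta method (n = 5). Groups were called separated where means plus and minus 1.7889 SD did not meet, with the mean and the SD each shifted by 0.05 to allow for rounding.

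The members, lists and ranges were chosen with earlier results of these data known. Named promoters were those with a known role, per strain and direction up to 3 separated promoters with the largest change and the promoter with the largest change, the 3 highest and the 3 lowest levels, the 2 with the most and the 2 with the fewest CG sites, and the 2 with the most variants. Vmn2r69, Vmn2r19, Vmn2r94, Vmn2r110, Vmn2r102, genes inside the clusters and single genes of the pathway lists were named after their values were seen. Sequence, GC content, repeats and unique sequences (51 bases, starts every 20 bp) came from GRCm38.p6 and gene models from GENCODE M21. Python 3.11.15 with numpy 2.4.6, pandas 2.3.3, numba 0.67.0 and matplotlib 3.10.9 was used. Alternatives were 3 scalings, pseudocounts of 0.1 and 0.5, a filter on means of at least 1, a threshold of 0.5, ranges without the allowance for rounding, a cluster gap of 2 Mb and 49-base sequences. Promoters listed at 0, overlapping probes, probes under 90% unique and probes over 1000 bp from GENCODE starts were also left out in turn, which was chosen after seeing the data.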

Additional observations from a re-analysis of the deposited data

How the results depend on the processing

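The median change of Vmn2r promoters stayed above 0 and above that of all promoters in both strains under every scaling, pseudocount and filter tried. Against 46 promoters above 1 in C57BL/6J and 32 in FVB/N, means as deposited gave 28 and 31 (5.09% and 14.4% of all promoters), which turns the order of the strains, and equal medians gave 24 and 14, where the median of all promoters was -0.10 and -0.16 (C57BL/6J) and 0.35 and -0.18 (FVB/N). A pseudocount of 0.1 gave a C57BL/6J median of 1.65 (1.23 above all promoters) and 51 above 1 and 5 below -1 in FVB/N (23.2% and 6.63% of all promoters), and a threshold of 0.5 gave 57 above it in FVB/N (37.9%). Probes with at least 90% unique sequence gave 27 and 16 of 43 above 1 (14.3% and 13.2% of all such promoters) with 0 below -1 in either strain, and the filter on means of at least 1 kept 77 of the 94. Separated libraries, higher in DEHP, were 6 in C57BL/6J without the allowance for rounding (1.30% of all promoters). They were 2, without Vmn2r77, with means as deposited, equal medians or at least 90% unique sequence. They were also 2, without Vmn2r100, with the filter on means of at least 1 or without promoters listed at 0. In FVB/N 1 was left, without Vmn2r55, with equal medians or at least 90% unique sequence. Vmn2r29, separated and lower in FVB/N, is left out (0 remain) with that sequence filter or without probes over 1000 bp from a GENCODE start. Joining neighbours up to 2 Mb apart gave 16 clusters in place of 20, and 49-base sequences gave a median unique share of 87.5%. Of 58 changes of named promoters, 47 had 1 sign under all alternatives run.

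No paired analysis was possible because the table holds group means, and leaving out a replicate could not be run for the same reason. At means near 1 normalized read, a value with 1 decimal and 5 libraries per group limits what can be seen at single promoters.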
